A study of Mus musculus with 7 samples.

Results

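The genes described here encode the aminoacyl-tRNA synthetases of the mouse and the scaffold proteins that hold several of them together. They were chosen by gene symbol and number 38, made up of 20 cytosolic synthetase genes, 2 scaffold genes (Aimp1 and Aimp2) and 16 mitochondrial synthetase genes, whose symbols end in the suffix of the mitochondrial forms (Aars2, Cars2 and so on). Of these, 37 had a probe that passed the signal filter, out of 13696 named genes and 22341 features tested. Nars2, the mitochondrial asparaginyl-tRNA synthetase, was not well above background in any heart and has no value below.

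The study compared hearts of male C57BL/6 mice that were 3 months old, profiled on Agilent arrays with 1 colour. All mice were homozygous for a floxed gene of p38 MAPKα (Mapk14), with loxP sites around exons 2 and 3, and all received hydroxytamoxifen at 500 µg per day for 10 days from 6 weeks of age. The KO mice were also heterozygous for the MerCreMer recombinase, which hydroxytamoxifen activates and which the α-MHC promoter drives in cardiomyocytes, so that the other cells of the heart keep the gene. The labels name no MerCreMer in the control mice, and the recombinase and the loss of the gene cannot be told apart. Mice of both groups then received angiotensin II, a hormone that raises blood pressure and loads the heart, at 1.5 mg per kg per day for 48 h from osmotic pumps, and RNA came from the heart apex. There were 4 control hearts and 3 KO hearts, with no group that went without angiotensin II. The labels do not say that each sample is a separate animal in so many words, so the p-values measure the spread between these samples. The apex holds many cell types, and fewer cells of a type cannot be told apart from less RNA per cell.

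Aminoacyl-tRNA synthetases attach each amino acid to its tRNA and so supply the ribosome. In most cases separate nuclear genes encode the enzyme of the cytosol and that of the mitochondrion, where the charged tRNAs serve the translation of respiratory chain subunits encoded by mitochondrial DNA. Several cytosolic synthetases are known targets of Atf4, the transcription factor of the amino acid and integrated stress response. Several, partly the same ones, form a multisynthetase complex on the scaffolds Aimp1, Aimp2 and Eef1e1. The heart depends on mitochondrial respiration, and defects of mitochondrial synthetases, among them those of AARS2, are known causes of cardiomyopathy.

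All 7 arrays lay on 1 slide, with control hearts 1 and 2 and KO heart 1 in row 1 and control hearts 3 and 4 and KO hearts 2 and 3 in row 2. Between 46.0% and 49.6% of probes were well above background on an array. Values below are log2 signals minus the 75th percentile of their array, and differences are KO minus control on that scale with the standard error (SE) of the limma fit. A gene was called where the p-value, adjusted by the Benjamini-Hochberg method over all 22341 features, was under 0.05. Mapk14 did not pass (0.22 ± 0.12, adjusted p = 0.202 in limma), and whether its probes lie in the deleted exons is not known here. Of 3 probes of Esr1, the gene from which the Mer domains of the recombinase derive, 1 was well above background in 3 of 3 KO hearts and in 0 of 4 control hearts, and the other two were in none of the hearts. All 12 of the cardiomyocyte markers checked were well above background in every heart.

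In the KO hearts, 6 of the 22 cytosolic synthetase and scaffold genes were higher and 0 were lower. They were Hars, Tars, Farsa, Cars, Rars and Gars, by 0.49 to 0.90 on the log2 scale. The mitochondrial genes went mostly the other way. Of 15 measured, 5 were lower (Fars2, Aars2, Lars2, Vars2 and Cars2) and 1, Ears2, was higher. Ears2, the mitochondrial glutamyl-tRNA synthetase, had the greatest difference of any member, 2.81-fold higher in the KO hearts. The greatest fall was that of Fars2, the mitochondrial phenylalanyl-tRNA synthetase, 2.23-fold lower. Among all features, 25.2% were called, 10.2% higher and 15.0% lower, so the share of cytosolic and scaffold genes called higher, 27.3%, and the share of mitochondrial genes called lower, 33.3%, stood above the background of the whole array. In the other direction the limma test called 0 cytosolic or scaffold genes lower, also at an unadjusted p under 0.05.

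**Figure D1:**
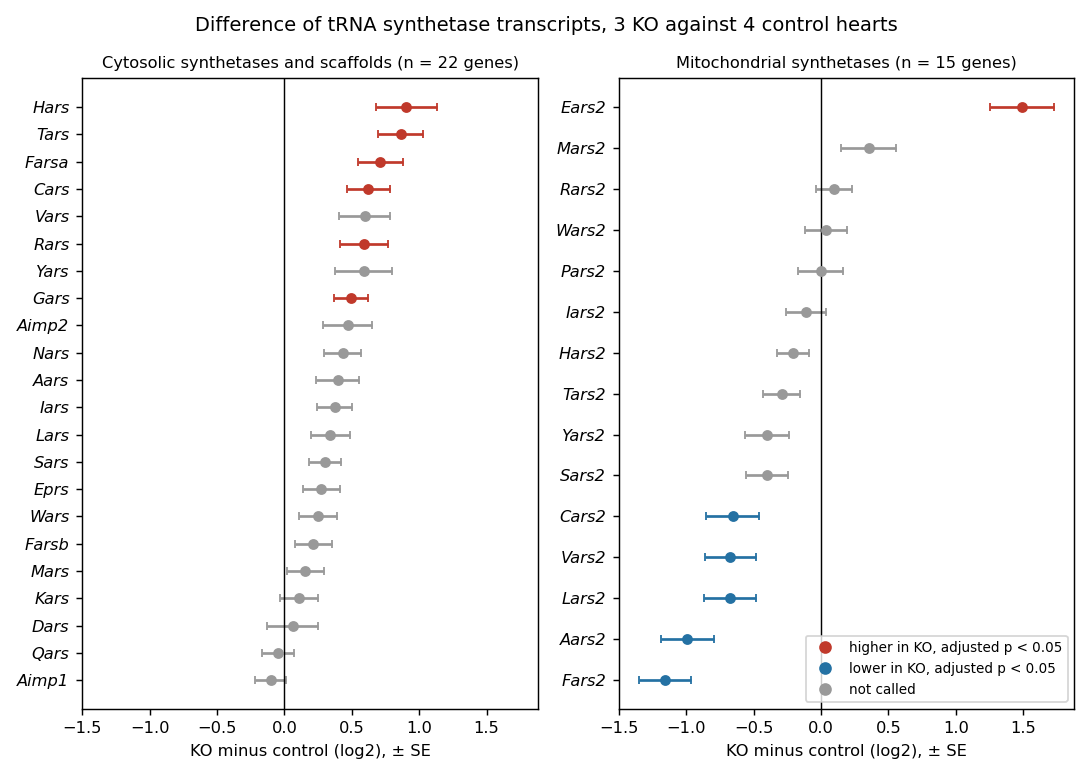
Difference of each measured member between 3 KO and 4 control hearts (log2, horizontal axis, ± SE of the limma fit), with cytosolic and scaffold genes on the left and mitochondrial genes on the right. Red and blue points passed the adjusted p of 0.05. In the left panel 20 of 22 points lie above 0, and in the right panel 11 of 15 lie below 0, with Ears2 far above the others; Qars and Pars2, close to 0, change side when arrays are centred on their median, and Wars2 with normexp or the mean over probes.

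The size of the shift across the class was modest and broad. Of the 22 cytosolic and scaffold genes, 20 had a positive difference, with a median of 0.38 and a range from -0.10 (Aimp1) to 0.90 (Hars). Of the 15 mitochondrial genes, 11 had a negative difference, with a median of -0.29 and a range from -1.15 (Fars2) to 1.49 (Ears2). The median of all features was -0.06 on the same scale. In 14 of the 22 cytosolic and scaffold genes every KO heart lay above every control heart, and in 1 (Aimp1) every KO heart lay below. Over all features the groups did not overlap in 39.0%, with all KO hearts higher in 17.6% and lower in 21.4%. Among the mitochondrial genes 9 of 15 had all KO hearts lower and 1 (Ears2) had all KO hearts higher.

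The calls leaned on single hearts, whereas the medians moved little. Without KO heart 1, limma called 0 of the 37 members and 69 of all features. At an unadjusted p under 0.05 that fit had 6 cytosolic and scaffold genes higher and, of the mitochondrial genes, 5 lower and 1 higher. The share of all features at that cutoff is not given, here or for the counts at an unadjusted p below. Such counts are therefore not set against a background. Without KO heart 2, only Ears2 and Fars2 passed. Leaving out control heart 1 left 5 member calls, control heart 3 left 4 and control heart 4 left 4, while 12 remained without control heart 2 and 15 were made without KO heart 3. Over these 7 fits the median difference of the cytosolic and scaffold genes ran from 0.33 to 0.50, and that of the mitochondrial genes from -0.34 to -0.22. KO heart 3 was the KO heart nearest to the controls in 12 of the 12 called members.

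**Figure D2:**
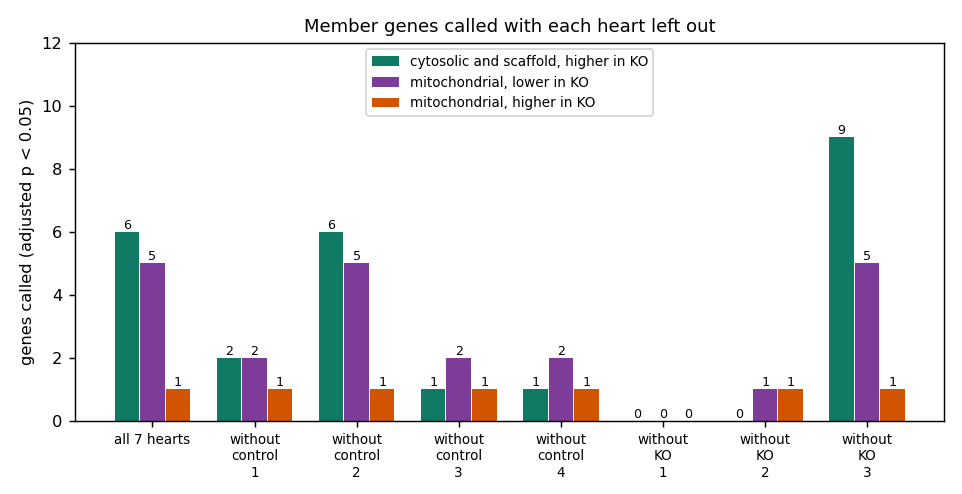
Number of member genes called at an adjusted p under 0.05 (vertical axis) with all 7 hearts and with each heart left out in turn. The cytosolic genes called higher fall from 6 to 0 without KO heart 1 or KO heart 2 and rise to 9 without KO heart 3.

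Among the cytosolic genes, Hars, which charges histidine tRNA, differed by 0.90 ± 0.23 (adjusted p = 0.0272). Its levels were 1.17, 1.29, 0.68 and 0.70 in control hearts 1 to 4 and 2.18, 1.92 and 1.50 in KO hearts 1 to 3. Control hearts 3 and 4 were the low ones, and the lowest KO heart still lay above the highest control heart. Tars, the threonyl-tRNA synthetase, read 2.78, 2.86, 2.48 and 2.62 in the controls and 3.70, 3.69 and 3.25 in the KO hearts. The groups did not overlap, the difference was 0.86 ± 0.17, and limma gave an adjusted p of 0.0157. Farsa encodes the catalytic α subunit of the cytosolic phenylalanyl-tRNA synthetase. Its 4 control hearts lay within a narrow band at 1.88, 1.91, 1.92 and 1.91, and the KO hearts stood apart at 2.81, 2.79 and 2.24 (difference 0.71 ± 0.17, adjusted p = 0.0228). Another probe of Farsa had a difference of 0.45. For Farsb, the β subunit of the same enzyme, the controls read 2.68, 2.73, 2.62 and 2.62 and the KO hearts 3.10, 2.84 and 2.68, with groups that overlapped and a difference of 0.21 ± 0.14 that did not pass (adjusted p = 0.269).

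Cars charges cysteine tRNA, and its signal was 2.83, 3.17, 2.78 and 2.88 in the control hearts against 3.74, 3.57 and 3.31 in the KO hearts. Control heart 2 came closest to the KO hearts, and the difference was 0.62 ± 0.16 (adjusted p = 0.0295). For Rars, the arginyl-tRNA synthetase, the control values were -0.71, -0.43, -0.98 and -0.99 and the KO values -0.08, -0.13 and -0.35. Here too control heart 2 was nearest, at a gap smaller than the spread of the controls, and the difference of 0.59 ± 0.18 passed only narrowly (adjusted p = 0.0435). With arrays centred on their median the difference was 0.68, but the call was lost. Gars, whose 1 gene supplies the glycyl-tRNA synthetase of both compartments, read 5.96, 6.03, 5.83 and 5.97 in the controls and 6.47, 6.54 and 6.31 in the KO hearts. That was the smallest of the called rises, 0.49 ± 0.13 with an adjusted p of 0.0278. In all 12 called members the groups did not overlap, against 39.0% of all features in either direction. These 12 genes were chosen by the limma call on the same 7 hearts, so neither non-overlap nor the permutation test below checks them separately. Permuting the 7 hearts between the groups in all 35 ways (exact permutation test, two-sided) gave p = 0.0286, the smallest it can give, for 10 of them, and p = 0.0571 for Rars and Cars2.

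**Figure D3:**
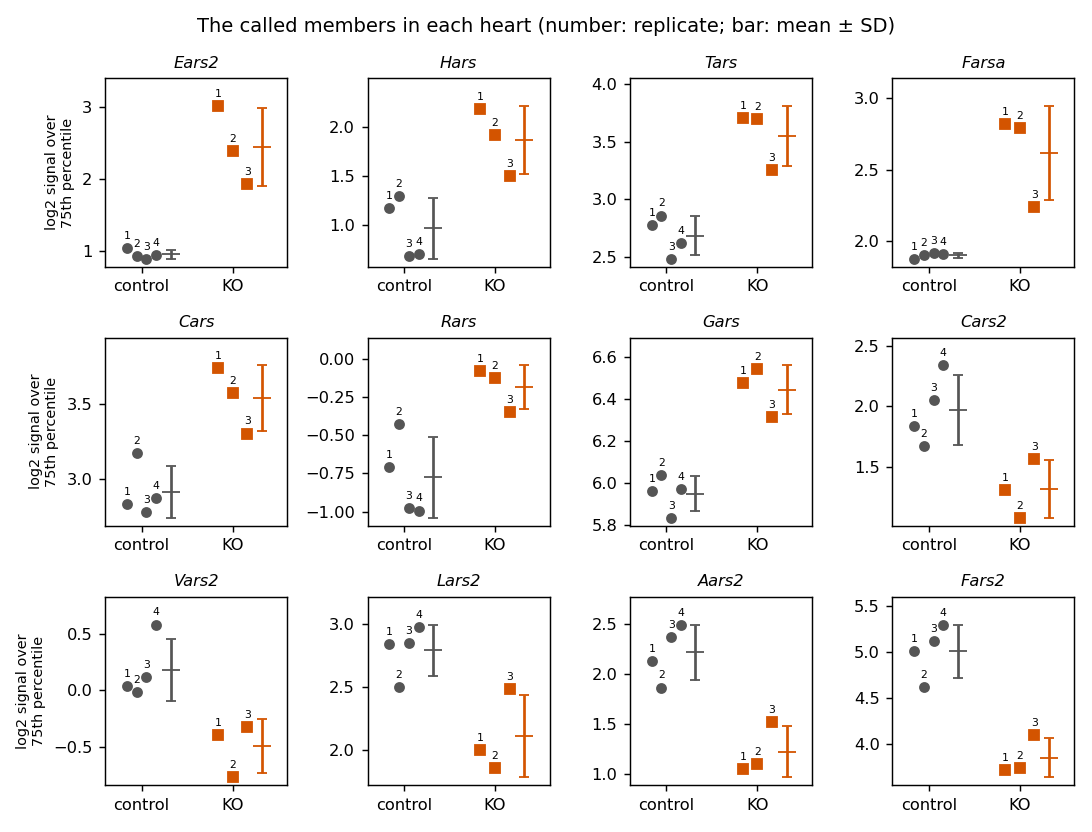
Level of the 12 called members in each heart (log2 signal minus the 75th percentile of the array, vertical axis with its own range in each panel). Circles are control hearts, squares KO hearts, numbers the replicate, and bars the mean ± SD; in all 12 panels KO heart 3 is the square nearest to the controls.

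The remaining cytosolic members did not pass. Vars, for valine, and Nars, for asparagine, came nearest, with differences of 0.60 ± 0.19 (adjusted p = 0.0525) and 0.43 ± 0.14 (adjusted p = 0.0536). Vars read 0.86, 1.32, 1.35 and 1.26 in the controls and 1.94, 1.98 and 1.46 in the KO hearts. Control heart 1 was the low one for Vars, and every KO heart lay above every control. Iars, for isoleucine, had 0.37 (adjusted p = 0.0652), and Yars, for tyrosine, 0.59 (adjusted p = 0.0726), the latter from a dim probe that was well above background in 3 of 4 control hearts. The alanyl-tRNA synthetase Aars read 3.66, 3.73, 3.61 and 3.79 in the controls and 4.18, 4.32 and 3.78 in the KO hearts. Its KO heart 3 fell within the controls, and the difference was 0.40 ± 0.16 (adjusted p = 0.0972). Lars, for leucine, had control values of 3.75, 3.56, 3.56 and 3.46 and KO values of 4.12, 3.89 and 3.76, which is a difference of 0.34 ± 0.14 (adjusted p = 0.107). Eprs, which joins the glutamyl and prolyl enzymes of the cytosol in a single protein, read 0.93, 0.89, 0.93 and 0.65 and 1.27, 1.08 and 1.03 in the same order of groups, 0.27 ± 0.14 apart (adjusted p = 0.161). The other differences were those of Sars (0.30), Wars (0.25), Mars (0.16), Kars (0.11) and Dars (0.06, but -0.12 without KO heart 1 and -0.0198 without control heart 3). Qars had a difference of -0.05, whose sign changed with the scaling (0.04 with arrays centred on their median).

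The 2 scaffolds differed from each other in sign. Aimp2 had 0.47 ± 0.18 (adjusted p = 0.0877) and Aimp1 -0.10 ± 0.11 (adjusted p = 0.525), and neither passed. Aimp2 shares part of its span with Eif2ak1 in the RefSeq gene table, and the place of its probe is not known here. In that table Aars, Farsb, Mars, Wars, Aimp1, Iars2 and Rars2 also share part of their span with a gene that is no member. So do Cars, Farsa, Iars, Lars, Sars, Fars2, Lars2 and Wars2, but only with entries named Mir or Gm or, for Lars, Rps19-ps4. Of the 10 members that belong to the multisynthetase complex, 1 (Rars) was called higher, and the median difference was 0.21. Of the 12 outside it, 5 were called higher, all 12 differences were positive, and the median was 0.54. The share in the complex, 10%, was that of all features called higher (10.2%), against 41.7% outside it. This contrast between the lists was not tested, and it leaves out Eef1e1, the third scaffold of the complex. Eef1e1 is not among the members and was called higher (1.09). The cytosolic synthetases were also split by whether they are commonly listed as Atf4 targets. Of the 12 listed, 3 were called (Cars, Gars and Tars), and the median of the 12 was 0.38. Of the 8 others, 3 were called (Farsa, Hars and Rars), and the median of the 8 was 0.40. Those shares are 25% and 37.5%, against 10.2% of all features called higher.

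The promoters of the cytosolic genes were read because Atf4 binds the C/EBP-ATF response element, a composite motif searched here as TGATGNAA on both strands. The windows come from RefSeq (GRCm38.p6) and run from 250 bases before to 50 after the annotated start. A window was given for 15 of the 22 cytosolic and scaffold genes, and 5 of them (Aars, Gars, Iars, Tars and Yars) held the motif, which is 33.3% against 4.51% of all 27025 genes with a window. In 14 mitochondrial genes with a window it was found in 0, which is too few genes to tell 0 apart from the 4.51% of all genes. Of the called genes Cars, Hars and Rars were among those with no window. The match in Tars and Gars, both called, and in Aars, Iars and Yars, not called, is shown in capitals with the 8 bases on each side, read along the strand on which the motif runs:
Tars: taaccagcTGATGCAAcgggactc
Gars: ccggtgcaTGATGAAAtagcgcag
Iars: tctggaggTGATGCAAtactgaca
Yars: agctcagcTGATGCAAcccgacgg
Aars, upstream: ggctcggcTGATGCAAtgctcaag
Aars, downstream: gagcgctcTGATGAAAagtgaccc
In Tars the match begins 15 bases before the start and in Gars 30 bases before it. A match describes the letters only, and no match says only that they are absent from the window.

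The whole windows of Tars, called and with the motif, and of Farsa, called without it, are printed for comparison along the strand of each gene. Tars lies at chr15:11399609-11399908, minus strand, with the motif in capitals as its reverse complement, and Farsa at chr8:84856736-84857035, plus strand:
Tars: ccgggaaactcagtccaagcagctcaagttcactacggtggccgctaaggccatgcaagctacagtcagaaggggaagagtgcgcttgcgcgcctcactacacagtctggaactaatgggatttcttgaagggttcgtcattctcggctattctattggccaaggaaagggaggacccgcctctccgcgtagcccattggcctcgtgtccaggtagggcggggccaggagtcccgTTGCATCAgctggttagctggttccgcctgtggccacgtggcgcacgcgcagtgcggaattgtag
Farsa: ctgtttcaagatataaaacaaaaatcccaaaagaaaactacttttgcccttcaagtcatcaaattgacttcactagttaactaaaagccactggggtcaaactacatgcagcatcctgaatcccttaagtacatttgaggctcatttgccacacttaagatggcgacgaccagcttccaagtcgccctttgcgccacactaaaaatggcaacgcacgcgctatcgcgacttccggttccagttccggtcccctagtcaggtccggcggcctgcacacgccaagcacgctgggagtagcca
Of these windows, Tars is richer in G and C (59.0%) than Farsa (49.0%).

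Among the mitochondrial genes, Ears2 stood alone as a gene called higher. Its control hearts read 1.04, 0.93, 0.89 and 0.94 and its KO hearts 3.01, 2.39 and 1.93. The controls were tightly grouped, the KO hearts were spread over more than 1 log2 unit, and the lowest of them was well clear of the controls (difference 1.49 ± 0.24, adjusted p = 0.0124). Within each row of the slide the difference was 2.02 in row 1 and 1.24 in row 2. Mitochondria have no glutaminyl-tRNA synthetase of their own. Ears2 loads glutamate on both the glutamate and the glutamine tRNA, and the GatCAB amidotransferase (Qrsl1, Gatb and Gatc) then converts the latter. In the KO hearts Qrsl1 fell by 1.24 ± 0.22 (adjusted p = 0.0143) and Gatb by 0.84 ± 0.21 (adjusted p = 0.0261), in the opposite direction to Ears2, while Gatc had -0.17 ± 0.15 (adjusted p = 0.406). Qrsl1 read 1.68, 1.47, 1.95 and 2.28 in the controls and 0.38, 0.55 and 0.89 in the KO hearts, with no overlap. Both calls were lost without KO heart 1 or KO heart 2, and that of Gatb also without control heart 3 or 4.

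Fars2 fell most. Its levels were 5.01, 4.62, 5.12 and 5.30 in the controls and 3.73, 3.74 and 4.10 in the KO hearts, with no overlap and with control heart 2 the lowest control (difference -1.15 ± 0.19, adjusted p = 0.0126). The mitochondrial alanyl-tRNA synthetase Aars2 read 2.13, 1.87, 2.38 and 2.50 in the controls and 1.05, 1.11 and 1.52 in the KO hearts. KO hearts 1 and 2 were nearly equal and KO heart 3 was higher, and the fall of 0.99 had an SE of 0.20 (adjusted p = 0.0163). These falls were -1.09 in row 1 and -1.29 in row 2 for Fars2, and -0.95 in row 1 and -1.12 in row 2 for Aars2.

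Lars2, the mitochondrial leucyl-tRNA synthetase, read 2.84, 2.50, 2.85 and 2.98 in the controls and 2.00, 1.86 and 2.48 in the KO hearts. KO heart 3 came within a small distance of control heart 2, and the difference was -0.68 ± 0.19 (adjusted p = 0.0383). In Vars2, for valine, the control values were 0.04, -0.01, 0.12 and 0.58 and the KO values -0.39, -0.76 and -0.32, a difference of -0.67 ± 0.19 (adjusted p = 0.0385). Control heart 4 was the high one. Cars2, for cysteine, read 1.83, 1.67, 2.05 and 2.34 in the controls and 1.31, 1.08 and 1.56 in the KO hearts, -0.66 ± 0.20 apart (adjusted p = 0.0455). Another probe gave -0.73 for Vars2, and another -0.29 for Cars2. The calls of Lars2, Vars2 and Cars2 were lost when arrays were centred on their median, and that of Cars2 also with the mean over probes.

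Of the 9 mitochondrial genes not called, 3 are partners of a called cytosolic gene. Hars2 read 1.71, 1.58, 1.75 and 1.76 in the controls and 1.47, 1.51 and 1.50 in the KO hearts (-0.21 ± 0.12, adjusted p = 0.209). Hars2 overlaps Hars in the RefSeq gene table, and the place of their probes is not known here. Tars2 had 4.32, 4.17, 4.32 and 4.49 in the controls and 4.11, 3.86 and 4.13 in the KO hearts (-0.29 ± 0.14, adjusted p = 0.148). For Rars2 the hearts read 2.89, 2.84, 2.72 and 2.77 and 2.95, 3.06 and 2.70 (0.10 ± 0.14, adjusted p = 0.608), and the groups overlapped. The others were Sars2 (-0.40), Yars2 (-0.40), Iars2 (-0.11), Pars2 (-0.0036), Wars2 (0.04) and Mars2 (0.36). The signs of Pars2 and Wars2 changed with the processing, and another probe of Wars2 gave -0.43.

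The windows before the 2 mitochondrial genes that moved most, in opposite directions, are printed along the strand of each gene. Neither held TGATGNAA. Ears2 lies at chr7:122067037-122067336, minus strand and Fars2 at chr13:36117393-36117692, plus strand (GRCm38.p6):
Ears2: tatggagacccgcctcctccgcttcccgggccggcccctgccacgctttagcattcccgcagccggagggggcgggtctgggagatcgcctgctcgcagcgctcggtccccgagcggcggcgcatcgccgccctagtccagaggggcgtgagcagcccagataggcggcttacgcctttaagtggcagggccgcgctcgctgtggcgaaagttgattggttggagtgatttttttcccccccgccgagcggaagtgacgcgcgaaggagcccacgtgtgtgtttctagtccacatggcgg
Fars2: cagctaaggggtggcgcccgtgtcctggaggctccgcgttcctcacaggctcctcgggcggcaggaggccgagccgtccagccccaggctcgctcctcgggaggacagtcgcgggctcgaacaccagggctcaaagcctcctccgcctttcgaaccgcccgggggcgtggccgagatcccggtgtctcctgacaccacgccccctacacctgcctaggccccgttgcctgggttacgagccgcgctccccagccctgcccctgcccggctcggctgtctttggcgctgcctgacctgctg
Both are rich in G and C, with 67.0% in Ears2 and 71.7% in Fars2.

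Setting each cytosolic gene beside the mitochondrial gene for the same amino acid gave 16 pairs with both members measured, of 17 listed. The cytosolic difference was the higher in 14 of them, with a median gap of 1.001 on the log2 scale, which is the difference between the changes and not between the levels of the genes. In 13 pairs the ratio of cytosolic to mitochondrial signal was higher in every KO heart than in every control heart. The pairs are not all separate. Fars2 stands in 2 of these 13, with Farsa and with Farsb, and Eprs in 2 of the 16, with Ears2 and with Pars2. No background share was computed for this count, and the gaps were not tested. In 2 pairs both genes were called in opposite directions. For phenylalanine, Farsa rose and Fars2 fell, a gap of 1.87. Centred on the control mean, that ratio was -0.02, 0.40, -0.09 and -0.28 in the controls and 2.19, 2.16 and 1.24 in the KO hearts. For cysteine, Cars rose and Cars2 fell, a gap of 1.28. The alanine pair (Aars and Aars2) had a gap of 1.39 and the valine pair (Vars and Vars2) 1.27, each with the mitochondrial gene called. The pairs of methionine (Mars and Mars2, -0.20) and glutamate (Eprs and Ears2, -1.22) went the other way, and only in the latter was the ratio lower in every KO heart.

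**Figure D4:**
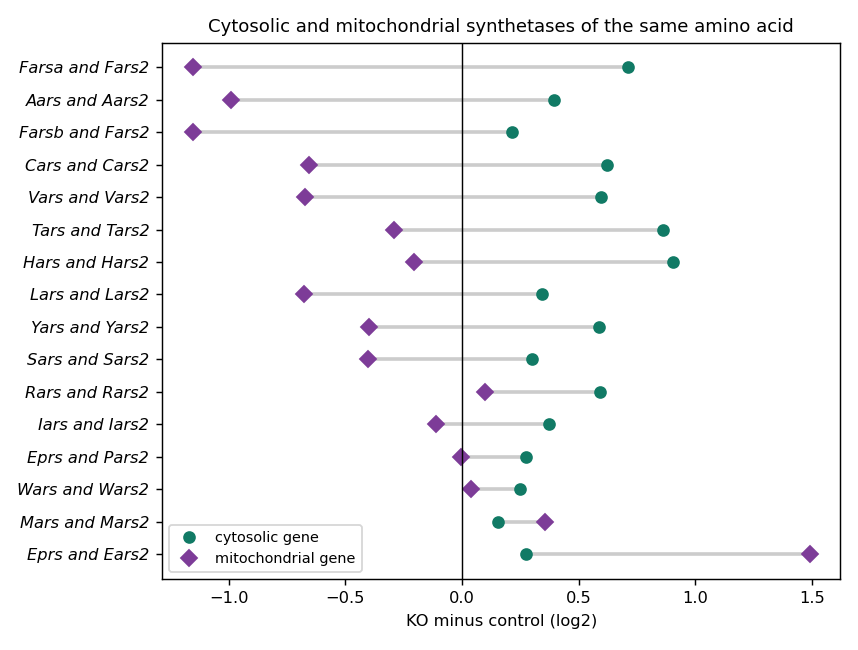
Change of the cytosolic gene (circle) and the mitochondrial gene (diamond) for the same amino acid, KO minus control on the log2 scale (horizontal axis), for 16 pairs in order of the gap. The circle lies to the right of the diamond in 14 pairs; the exceptions are Mars and Mars2, and Eprs and Ears2.

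Of 14 accessory genes of tRNA charging, limma called 4 higher (28.6%, against 10.2% of all features) and 2 lower (14.3%, close to the 15.0% of all features). Eef1e1, the third scaffold of the multisynthetase complex, rose by 1.09 ± 0.28 (adjusted p = 0.0301), and Xpot, the exporter of tRNA from the nucleus, by 0.91 ± 0.20 (adjusted p = 0.0201). Without KO heart 1 or KO heart 2 none of the 14 was called, and 6 and 7 respectively had an unadjusted p under 0.05, by count only. Without control heart 3 there were 2 calls and without control heart 4 there was 1.

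The amino acid response genes rose in part. Of 36 measured, 13 were called higher (36.1%, against 10.2% of all features) and 2 lower (5.6%, against 15.0%), with a median of 0.49. Atf4 itself read 5.92, 5.95, 5.80 and 5.79 in the controls and 6.91, 6.99 and 6.11 in the KO hearts, a difference of 0.80 ± 0.22 (adjusted p = 0.0343). KO heart 3 was the lowest KO heart. Psat1, of serine synthesis, rose by 2.43 ± 0.46 (adjusted p = 0.0149) and Mthfd2, of mitochondrial folate metabolism, by 2.18 ± 0.38 (adjusted p = 0.0137). The amino acid transporter chain Slc3a2 rose by 0.93 ± 0.18 (adjusted p = 0.0161), and the secreted stress factor Gdf15 by 3.74 ± 0.77 (adjusted p = 0.0176). Leaving out KO heart 1 ended all 15 calls of this list, and in that fit 13 of its genes were higher and 2 lower at an unadjusted p under 0.05, by count only. Without KO heart 2 there was 1 call, without control heart 3 or control heart 4 there were 6, and without control heart 1 there were 9. Atf4 was called in none of these fits. Normexp background correction lowered the difference of Mthfd2 to 1.46, and leaving out control heart 2 raised that of Gdf15 to 4.46.

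Other genes of mitochondrial translation and tRNA processing were also called lower more often than higher. Of 22 measured, 7 were called lower (31.8%, against 15.0% of all features) and 1 higher (4.5%, against 10.2%), with a median of -0.40. The falls were 1.37 for Trmt5, a tRNA methyltransferase (adjusted p = 0.0145), 1.25 for Osgepl1, which modifies mitochondrial tRNAs (adjusted p = 0.0153), 0.88 for the translation factor Guf1 (adjusted p = 0.0148) and 0.72 for the elongation factor Gfm1 (adjusted p = 0.0203). With the mean over probes Guf1 had a difference of -0.22 and was not called. Nuclear genes of the respiratory chain were called lower in 21 of 23 (91.3%, against 15.0% of all features), with a median of -0.78. Examples are Ndufs8 of complex I (-1.17 ± 0.22, adjusted p = 0.0147), Cyc1 of complex III (-0.98 ± 0.20, adjusted p = 0.0168), Uqcrfs1 of the same complex (-0.92) and Ndufs3 of complex I (-0.94). Without KO heart 1 both lists had 0 calls, with 8 and 21 genes lower at an unadjusted p under 0.05, by count only. Without KO heart 2 they had 0 and 1, without control heart 1 they had 4 and 13 lower, without control heart 3 they had 4 and 10, and without control heart 4 they had 3 and 5. Leaving out control heart 2 gave 11 and 23.

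Averaged over the list after centring each gene, the cytosolic and scaffold genes read -0.17, -0.10, -0.23 and -0.17 in control hearts 1 to 4 and 0.36, 0.27 and 0.04 in KO hearts 1 to 3. All KO hearts were above all controls, with KO heart 3 the lowest. The mitochondrial genes averaged 0.10, -0.08, 0.11 and 0.27 in control hearts 1 to 4 and -0.11, -0.15 and -0.15 in KO hearts 1 to 3. The KO hearts lay close together, and control heart 2 was the control nearest to them. In the amino acid response list the averages were -0.18, -0.15, -0.33 and -0.38 in control hearts 1 to 4 and 0.46, 0.46 and 0.11 in KO hearts 1 to 3. KO heart 3 was again the lowest KO heart. The respiratory chain list gave 0.26, -0.05, 0.61 and 0.52 in control hearts 1 to 4 and -0.56, -0.37 and -0.40 in KO hearts 1 to 3, and control heart 2 was again the lowest control, as among the mitochondrial synthetases.

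**Figure D5:**
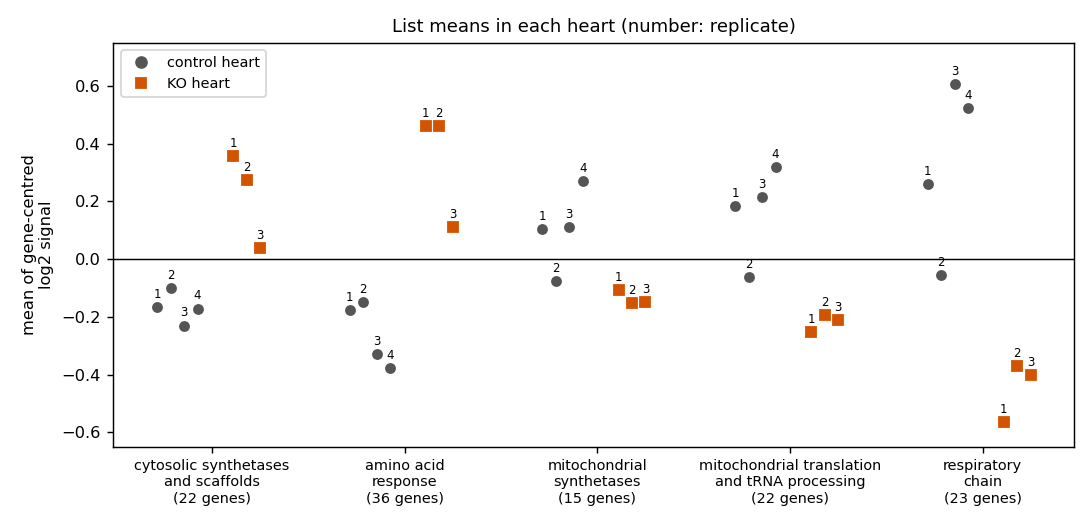
Mean of the gene-centred log2 signal over 5 gene lists (vertical axis) in each heart, control hearts as circles and KO hearts as squares, numbered by replicate. The cytosolic and amino acid response lists have KO heart 3 as their lowest KO heart, and the 3 mitochondrial lists have control heart 2 as their lowest control.

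Some markers of cell types also differed between the groups, in both directions. Of 12 cardiomyocyte markers 6 were called lower (50%, against 15.0% of all features), led by Tnni3 (-1.19), Pln (-2.34), Mybpc3 (-1.22) and Actn2 (-0.78). The other 6 were not called. These were Tnnt2 (-0.46), Actc1 (-0.37), Myh6 (-0.30), Myl2 (-0.23), Myl3 (-0.21) and Nppa (0.55), the 1 positive difference of the 12. The summed signal of the 12, relative to the 75th percentile of the array, was 6932 to 9102 in the control hearts and 5844 to 6733 in the KO hearts. Among the neutrophil markers S100a8 (3.33, adjusted p = 0.0187) and S100a9 (3.14, adjusted p = 0.0195) were higher. Without KO heart 3 these differences were 4.33 and 4.12, and without KO heart 2 they were 2.69 and 2.56 and not called. Fpr2, Mmp9, Fpr1, Cxcr2 and Mmp8 passed the signal filter only through the KO hearts. Fpr1 and Fpr2 were well above background in 2 of 4 control hearts, and Cxcr2, Mmp8 and Mmp9 in 0 of 4. The markers Retnlg, Ly6g and Ngp were not measured, and the summed signal of the 9 measured, out of 12, was 114 to 177 in the control hearts and 102 to 178 in the KO hearts. Csf3r (-0.23 ± 0.21, adjusted p = 0.442) made up most of that sum in every heart. With the filter on all arrays, 4 of the 12 were measured and 2 were higher. Of 11 monocyte and macrophage markers measured, out of 12, 4 were called higher (36.4%, against 10.2% of all features). These were Cd14 (1.43), Msr1 (2.34), Fcgr1 (1.67) and Mrc1 (1.06). The other 7 were not called, among them Adgre1 (0.24) and Csf1r (0.23). Of the 11 differences 10 were positive and 1 negative, that of Itgam (-0.56, not called). The summed signal of the 11 was 109 to 120 in the control hearts and 118 to 161 in the KO hearts. Among 10 fibroblast markers Pdgfra was higher (0.68) and Pi16 (-1.27) and Dpt (-0.81) were lower. Those shares, 10% and 20%, lay near the 10.2% and 15.0% of all features. Dcn had -0.71 and did not pass, and the sums were 415 to 663 in the control hearts and 308 to 727 in the KO hearts. Kdr was the 1 of 10 endothelial markers called, lower by 1.19 (10%, against 15.0% of all features called lower). Tek had -0.71, Tie1 -0.68 and Emcn -0.49, and those sums were 244 to 368 in the control hearts and 202 to 298 in the KO hearts. Of the called markers named here, Fpr2 and Mmp9 alone stayed called without KO heart 1. The signal filter that kept these 2 genes had used that heart, so this fit is no separate check of them. With 1 heart left out, Mrc1 stayed called only without control heart 2. The part of any of these cells in the differences of the synthetase genes was not tested.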

How the data were processed

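RNA from 7 mouse heart apices was hybridised to 1-colour Agilent arrays. Per the labels' protocols, 100 ng of total RNA was amplified and labelled with Cy3. Per the file headers, the authors' scanner files hold the processed signal intensity of each spot, background-subtracted by Feature Extraction; the deposited value table holds log2 values. That table was centred on each probe's median over arrays (100% of probes), its column medians ran from -0.00212 to 0.00790, and it correlated with the scanner values at 0.986 to 0.998; which percentile or target set its scale is unknown.

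Spots of a probe were averaged, log2 taken and each array's 75th percentile subtracted. Of 55681 probes, 26571 were kept because 3 or more arrays of a group had them well above background. Probes were named through their transcript accession in a RefSeq gene table (GRCm38.p6): 28026 matched 1 symbol, 27655 none and 0 several. The brightest kept probe stood for a gene, and other probes were compared with it in direction. limma 3.58.1 (R 4.3.3; lmFit and eBayes, no covariates) was fitted over 22341 features with Benjamini-Hochberg adjustment and a threshold of 0.05, and its code was tested on simulated data. For single genes the group means were also compared by an exact permutation test over 35 splits. Single control hearts that stood apart were checked by Dixon's test. Array number limits the precision.

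All members were accounted for. Values per heart are given for called members and for the partners of called members, and of each other list the 4 genes with the lowest p are named, plus Atf4 and Eef1e1. An accessory gene is not reported here. Asides to that rule are Gatc, Mapk14, Esr1, S100a8, S100a9, Csf3r and the neutrophil genes not above background. Others are Itgam, Adgre1, Csf1r and the cardiomyocyte markers not called. All asides were chosen after values were seen. Promoters were printed for the members with the greatest absolute difference in each class that had a window. The members and lists were chosen with earlier results of these data known. Alternatives were normexp (offset 50), quantile and median scaling, other probe filters, the mean over probes, the authors' table, trend and robust variance, blocks for array row and replicate number, and leaving out each heart. The study's design speaks of 4 KO hearts; the other KO heart was not analysed here.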

Additional observations from a re-analysis of the deposited data

Results flagged for a closer look

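In the 4 control hearts, 1 heart stood apart from the other three in 3 of 74 genes checked by Dixon's test, 1 of them among the 37 members. Chance flags about 5 percent of such groups, and the 3 KO hearts were too few to check. Eprs in control heart 4 read 0.65, below the others at 0.93, 0.89 and 0.93. Slc3a2, the amino acid transporter chain, read 3.30 in control heart 4, against 3.67, 3.68 and 3.63 in control hearts 1 to 3. Mmp9, a neutrophil protease whose probe was not well above background in any control heart, read -5.06 in control heart 2, against -6.09, -6.09 and -5.93 in the others.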

How the results depend on the processing

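Median differences of the cytosolic and mitochondrial genes kept their sign in every setting run, and with 1 heart left out they stayed within 0.33 to 0.50 and -0.34 to -0.22, and the gap between them (0.68) within 0.55 to 0.82. Counts moved more. With all hearts 5640 features and 12 members were called, with 6 cytosolic genes higher and 5 mitochondrial genes lower. Leaving out 1 heart gave 69 to 6971 features, 0 to 15 members, 0 to 9 cytosolic genes higher and 0 to 5 mitochondrial genes lower. With no filter on dim probes, limma called 1415 features, 2 members, 0 cytosolic genes higher (11 at an unadjusted p under 0.05, by count only) and 1 mitochondrial gene lower. Centring arrays on their median left 2 mitochondrial genes lower and 8 of the 12 calls; the loss of Rars, Cars2, Lars2 and Vars2 was not tested for a cause. Normexp, quantile scaling, the authors' table, the filter on all arrays, array row as a block, and trend with robust variance kept all 12, and the mean over probes 11. No filter on dim probes also left 2 amino acid response genes higher, 3 genes of mitochondrial translation lower and 1 of the respiratory chain lower. Yars has no value under the filter on all arrays.

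Replicate numbers did not pair the hearts: the deviations of same-numbered hearts correlated at 0.18, -0.22 and -0.20. With the replicate number as a block over replicates 1 to 3, 9 features passed, against 2217 in the same 6 hearts without it. The block left 0 members called, with 0 cytosolic genes higher and 0 mitochondrial genes lower. At an unadjusted p under 0.05 there were 7 and 5, by count only.

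Members near 0 changed sign. Qars was 0.0290 with quantile scaling, 0.0440 with median centring and 0.0195 in the authors' table (-0.0816 to 0.000637 with 1 heart left out). Pars2 was 0.0877 with median centring and 0.0555 with the replicate block (-0.10 to 0.0700). Wars2 was -0.0053 with normexp and -0.194 with the mean over probes (-0.0514 to 0.18). Dars ran from -0.12 to 0.195 with 1 heart left out. No member moved by over 1.5-fold in any setting. The number of arrays, 3 KO and 4 control, limits the precision.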
